A study of Mus musculus with 7 samples.

Results

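Chemokines are small secreted proteins that draw leukocytes to a tissue through receptors on the leukocyte surface. They are grouped by the spacing of their first cysteines into CXC and CC ligands, and the CXC ligands that carry a Glu-Leu-Arg (ELR) motif mainly attract neutrophils. In liver they come from hepatocytes, sinusoidal endothelium, Kupffer cells and hepatic stellate cells (HSCs), and several are switched on by cytokine signalling through NF-κB or interferon after injury.

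The 10 genes described here are Cxcl1, Cxcl2, Cxcl5, Cxcl10, Cxcl12, Cxcl14, Cxcl16, Ccl2, Ccl7 and Ccl20, which were chosen by name among the 55487 genes of the count table. All 10 were found by their Ensembl identifier, 9 had counts and these 9 also passed the filter on low counts, so that they are among the 10876 genes tested. The libraries were made from precision-cut liver slices (PCLS), thin discs of tissue in which the cell types of the liver stay together, from healthy adult male Balb/c mice without a transgene. The slices were collected on day 3 of culture in Williams' Medium E, either without addition (CTR, 3 libraries) or with VPA (valproic acid as its sodium salt, 2.5 mM, 4 libraries), an inhibitor of class I histone deacetylases. Cutting wounds the tissue, so that the CTR slices are themselves an injured and repairing tissue and there is no uncut liver among these libraries.

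Counts on genes were between 1743675 and 4773750 in the CTR libraries and between 1400887 and 3102450 in the VPA libraries. Levels are given as CPM (counts of a gene scaled to a common library size by TMM normalization). Because reads start near the 3′ end of each mRNA, CPM were compared between genes without division by length. A gene listed at 0 could have had up to 3 counts by counting error, or 0.591 to 2.41 CPM in the deepest and shallowest library. A 0 could also be a failed count, since 491 genes with at least 50 counts in 4 or more other libraries were listed at 0 in a library. There were 7 to 46 such genes in the CTR libraries and 61 to 268 in the VPA libraries. Polr2e, a subunit of RNA polymerases that every cell uses, had 0 counts in VPA replicate 1 and between 161 and 785 counts in the other 6 libraries.

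Comparing VPA with CTR slices, Cxcl14 and Cxcl10 had the largest differences among the 9 tested genes, 2.59-fold and 4.82-fold more mRNA with VPA. Cxcl16, which had the most mRNA of the 10 genes in CTR slices, was lower with VPA in 3 of 4 libraries than in any CTR library. The neutrophil ligands Cxcl1 and Cxcl2, the monocyte ligand Ccl2 and the homeostatic ligand Cxcl12 differed by at most 1.40-fold in either direction. By edgeR's quasi-likelihood test over all genes, 0 of the 9 passed at an adjusted p of 0.05, where 0.00919% of the 10876 genes passed. At an unadjusted p under 0.05, 2 of the 9 genes were higher with VPA (Cxcl10 and Cxcl14) and 0 were lower, where 8.28% of all tested genes passed, 3.65% higher and 4.62% lower. With slice culture number as a block, 1 of the 9 was higher at that level (Cxcl14), where 3.31% of all tested genes were. DESeq2, the tool named in the study's methods, called both at an adjusted p under 0.05, where 1.01% of 15261 genes were called, 0.256% higher and 0.754% lower. By sign alone 3 of the 9 genes were higher and 6 lower, where 45.8% and 54.2% of all tested genes were. The median log2 fold change of the 9 genes was −0.06, and that of all tested genes was also −0.06.

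**Figure D1:**
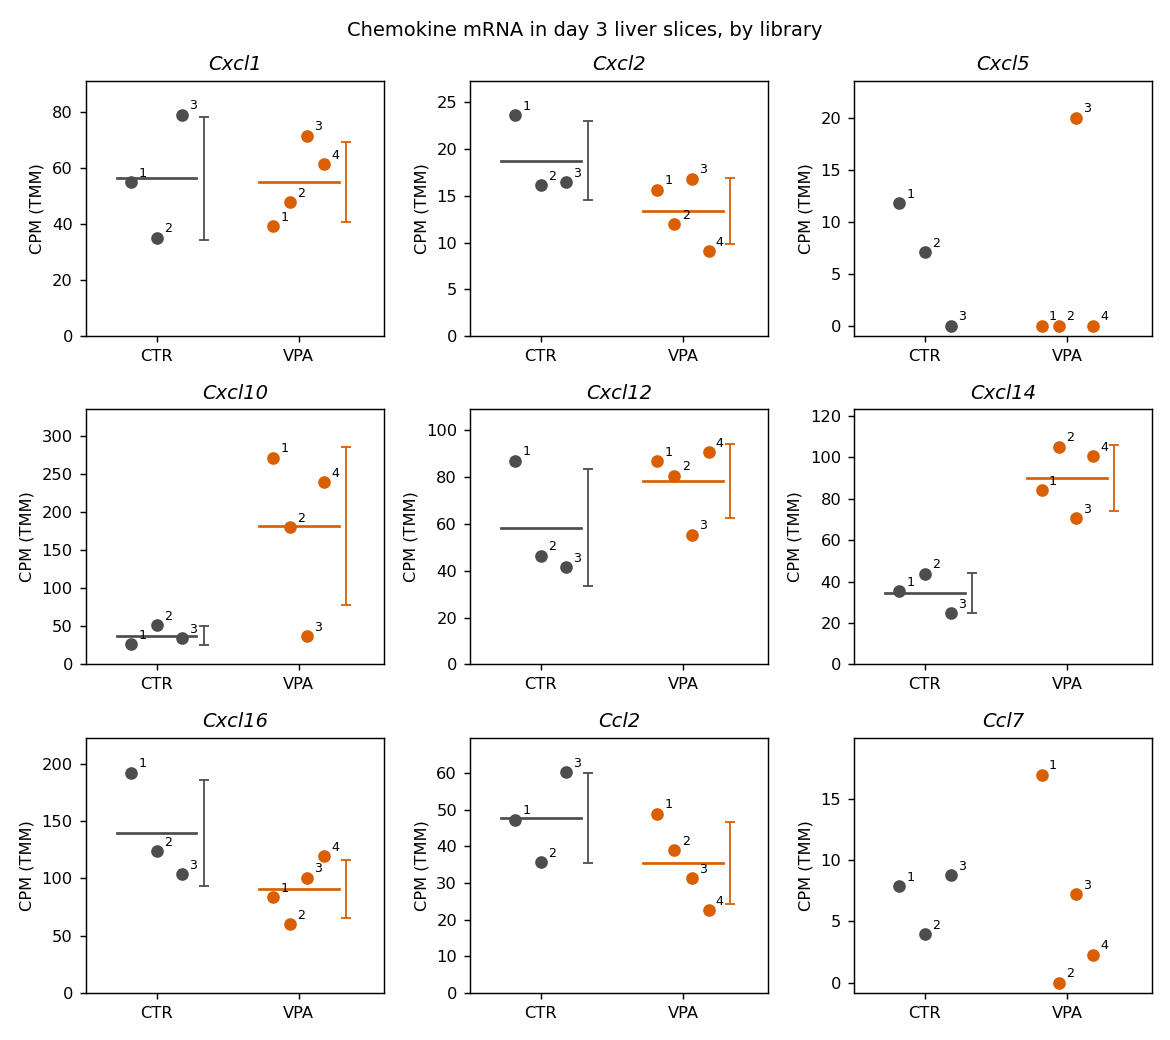
CPM (TMM) of the 9 chemokine genes with counts in each library, with CTR in grey and VPA in orange, the replicate number beside each point, the mean as a horizontal line and the SD as a bar. The 4 VPA libraries lie above all CTR libraries for Cxcl14, and VPA replicate 3 lies among the CTR libraries for Cxcl10. No mean is drawn for Cxcl5 and Ccl7, which are listed at 0 in some libraries.

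Cxcl1, Cxcl2 and Cxcl5 are ELR-bearing ligands of the receptor CXCR2 and lie near each other on chromosome 5 of GRCm38. Cxcl1 (ENSMUSG00000029380) lies from 90891241 to 90893115, Cxcl2 (ENSMUSG00000058427) from 90903871 to 90905938 and Cxcl5 (ENSMUSG00000029371) from 90759360 to 90761624, all on the + strand. Of the 10 genes, 6 had a promoter window in the RefSeq table for GRCm38.p6, which covers 250 bases before and 50 bases after the transcription start. Those windows were searched on both strands for the NF-κB consensus, found in 8.46% of all 32851 windows, for the core of the interferon response element (GAAA, any 2 bases, GAAA), found in 3.44%, and for TATAAA, found in 13.6% of windows and in 0 of these 6. The Cxcl1 and Cxcl2 windows each held the same NF-κB match, GGGAATTTCC, and the overlapping reverse match, so both promoters are shown to compare its place, with the matched bases in capitals. The match starts 67 bases before the gene start given above for Cxcl1 and 69 bases before that for Cxcl2, and 71 and 97 bases before the RefSeq starts, which lie further inside the genes. Both stretches are on the + strand, chr5:90891020-90891240 for Cxcl1 and chr5:90903674-90903870 for Cxcl2.
Cxcl1: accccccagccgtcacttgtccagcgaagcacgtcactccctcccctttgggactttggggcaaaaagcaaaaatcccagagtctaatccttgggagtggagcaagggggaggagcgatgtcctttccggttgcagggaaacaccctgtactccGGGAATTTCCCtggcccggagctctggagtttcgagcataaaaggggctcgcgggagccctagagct
Cxcl2: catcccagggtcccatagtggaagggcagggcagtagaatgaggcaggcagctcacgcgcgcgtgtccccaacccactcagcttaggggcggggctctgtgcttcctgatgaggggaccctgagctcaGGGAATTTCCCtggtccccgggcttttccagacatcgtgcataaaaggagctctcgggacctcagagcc

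Cxcl1 had 54.8, 35.1 and 78.9 CPM in CTR replicates 1 to 3 and 39.2, 47.7, 71.5 and 61.2 CPM in VPA replicates 1 to 4. All VPA libraries lay within the CTR range, with 56.3 ± 22.0 CPM (SD, n = 3) in CTR and 54.9 ± 14.3 CPM (SD, n = 4) in VPA slices. By edgeR the log2 fold change was −0.03 with a standard error of 0.33 (adjusted p = 0.992), and its sign turned with limma-voom, with slice culture number as a block and without CTR replicate 3, VPA replicate 1 or VPA replicate 2.

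Cxcl2 had 23.6, 16.2 and 16.4 CPM in the CTR libraries and 15.7, 11.99, 16.9 and 9.1 CPM in the VPA libraries. VPA replicate 3 lay above the CTR minimum and the other 3 VPA libraries below it. The difference of −0.49 on the log2 scale had a standard error of 0.409 (edgeR adjusted p = 0.881). Of the 2159 words of 50 bases in its transcripts, 126 also occur in Cxcl3, so some reads could be split between them, although Cxcl3 had only 0 to 8 counts per library.

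Cxcl5 was listed with 30, 36 and 0 counts in CTR replicates 1 to 3 and with 0, 0, 25 and 0 counts in VPA replicates 1 to 4. In CPM this is 11.8 and 7.1 in CTR replicates 1 and 2 and 20.1 in VPA replicate 3, which was the highest of all libraries. The jump from 0 to 25 counts or more, with no value between, has a cause that was not tested, and the estimate of −0.38 on the log2 scale had a standard error of 2.09 (edgeR adjusted p = 0.982). The summed CPM of Cxcl1, Cxcl2 and Cxcl5 was 58.3 to 95.4 in CTR and 54.8 to 108 in VPA libraries.

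Ccl2 and Ccl7 are CC ligands of the monocyte receptor CCR2 and are neighbours on chromosome 11. Ccl2 (ENSMUSG00000035385) lies from 82035571 to 82037453 and Ccl7 (ENSMUSG00000035373) from 82045712 to 82047525, both on the + strand. Ccl2 had 47.3, 35.7 and 60.3 CPM in the CTR libraries and 49.0, 39.0, 31.3 and 22.7 CPM in VPA replicates 1 to 4. VPA replicates 3 and 4 lay below all CTR libraries and the other 2 within their range. With a standard error of 0.320, the log2 fold change of −0.42 did not pass the test (edgeR adjusted p = 0.854). The gene Gm17268 overlaps Ccl2 on the opposite strand and had 0 counts in all libraries together.

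Ccl7 was much scarcer, with 20, 20 and 16 counts in the CTR libraries and 26, 0, 9 and 3 counts in VPA replicates 1 to 4. VPA replicate 1 thus had the highest level, 17.0 CPM. VPA replicate 2, the deepest VPA library, was listed at 0, and the cause was not tested. For Ccl7 the estimate was −0.06 on the log2 scale with a standard error of 1.34 (edgeR adjusted p = 0.997). In each CTR library Ccl2 had more CPM than Ccl7, with 47.8 ± 12.3 CPM (SD, n = 3) against 3.9 to 8.8 CPM.

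Ccl20 (ENSMUSG00000026166) encodes the ligand of the lymphocyte and dendritic cell receptor CCR6 and spans 83116766 to 83119167 of chromosome 1, + strand. It was listed at 0 in all 7 libraries, so no level can be given. Its promoter window held an NF-κB match, GGGGTTTTCC on the reverse strand, with its first base 80 bases before the RefSeq start.

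Cxcl10 and Cxcl14 are the genes with the largest differences, and Cxcl10 is the one of the 10 best known as an interferon response gene, encoding a ligand of the T and NK cell receptor CXCR3. Cxcl10 (ENSMUSG00000034855) spans 92346638 to 92348889 of chromosome 5, − strand. Cxcl14 (ENSMUSG00000021508), a conserved ligand whose receptor is debated, spans 56288643 to 56296551 of chromosome 13, also − strand. Their promoters are shown 5′ to 3′ along the gene because they differ in the motifs searched. The Cxcl10 window held the interferon element core, GAAAGTGAAA, 213 bases before the start and NF-κB matches at 159, 104 and 103 bases before it, the last a pair on both strands that overlaps the one before. The Cxcl14 window held GAAACAGAAA 172 bases before the start and no NF-κB match. The stretches are chr5:92348890-92349114 for Cxcl10 and chr13:56296552-56296776 for Cxcl14, with matches in capitals.
Cxcl10: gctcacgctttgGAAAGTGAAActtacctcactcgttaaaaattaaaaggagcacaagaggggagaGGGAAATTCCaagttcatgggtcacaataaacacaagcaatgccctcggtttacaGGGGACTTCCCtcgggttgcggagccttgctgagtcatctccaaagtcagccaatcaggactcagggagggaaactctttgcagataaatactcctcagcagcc
Cxcl14: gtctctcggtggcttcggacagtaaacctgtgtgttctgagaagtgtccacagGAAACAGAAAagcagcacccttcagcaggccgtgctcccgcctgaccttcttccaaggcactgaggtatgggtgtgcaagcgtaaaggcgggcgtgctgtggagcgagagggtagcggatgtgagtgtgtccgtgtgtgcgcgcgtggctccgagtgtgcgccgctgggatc

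Cxcl14 had 35.5, 43.8 and 24.7 CPM in CTR replicates 1 to 3 and 84.2, 105, 70.6 and 100 CPM in VPA replicates 1 to 4. The lowest VPA library exceeded the highest CTR library, with means of 34.6 ± 9.6 CPM (SD, n = 3) and 90.1 ± 15.8 CPM (SD, n = 4). Cxcl14 was the only 1 of the 9 tested genes without overlap between the groups, where 11.9% of all tested genes had none, 4.44% with VPA above CTR. Its log2 fold change of 1.37 had a standard error of 0.257 (edgeR unadjusted p = 0.000815, adjusted p = 0.193), which placed it 46th of the 10876 genes by p. DESeq2 gave an adjusted p of 0.00588, and edgeR gave 0.0340 when only the 6652 genes that reached 10 counts everywhere were tested, of which 0.541% passed. With a library left out in turn, the log2 fold change stayed between 1.16 and 1.57 and the adjusted p between 0.189 and 0.834. In such bulk libraries, a change in the number of cells that make a chemokine and a change in mRNA per cell cannot be told apart.

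Cxcl10 had 26.8, 51.2 and 34.5 CPM in the CTR libraries and 272, 180, 36.9 and 239 CPM in VPA replicates 1 to 4. VPA replicates 1, 2 and 4 lay far above the highest CTR library, while VPA replicate 3 lay inside the CTR range. The means were 37.5 ± 12.5 CPM (SD, n = 3) and 182 ± 104 CPM (SD, n = 4). On the log2 scale VPA was higher by 2.27 with a standard error of 0.631 (edgeR unadjusted p = 0.00782, adjusted p = 0.393). DESeq2 gave an adjusted p of 0.0189. Without VPA replicate 3 the log2 fold change was 2.60 with an adjusted p of 0.102 from edgeR, and without VPA replicate 1 it was 2.02 with 0.561. With slice culture number as a block it was 1.75 (edgeR unadjusted p = 0.0543, adjusted p = 0.632), which no longer passes at an unadjusted 0.05. The gene Art3 spans Cxcl10 on the opposite strand and had 40 counts in all libraries together.

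The genes whose log2 CPM followed Cxcl10 most closely over the 7 libraries, among 6391 tested genes with a mean of at least 20 CPM, were Zfp36l2 (Pearson r = 0.980), Atp6v1b2 (0.980), Atg12 (0.969), Ppp1r15a (0.964) and Slc25a51 (0.963). They encode, in this order, an mRNA decay factor, a subunit of the lysosomal proton pump, an autophagy protein, a regulator of translation under stress and a mitochondrial carrier. Ppp1r15a had 50.04, 60.9 and 44.4 CPM in the CTR libraries and 192, 150, 49.8 and 118 CPM in VPA replicates 1 to 4, so that it shared with Cxcl10 the low value of VPA replicate 3. These values come from the same 7 libraries and are given as a description only.

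Cxcl12 and Cxcl16 are made without injury in many tissues. Cxcl12 (ENSMUSG00000061353), the ligand of CXCR4 and of the scavenger receptor ACKR3, spans 117168535 to 117181367 of chromosome 6, + strand. It had 87.1, 46.5 and 41.7 CPM in CTR slices and 86.8, 80.6, 55.4 and 90.6 CPM with VPA. CTR replicates 2 and 3 lay below the 4 VPA libraries, and CTR replicate 1 exceeded 3 of them. The estimate was 0.42 on the log2 scale with a standard error of 0.311 (edgeR adjusted p = 0.847) and 0.82 without CTR replicate 1, with an unadjusted p of 0.0219 and an adjusted p of 1.00 from edgeR. Its promoter window held neither the NF-κB consensus nor the interferon element core.

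Cxcl16 (ENSMUSG00000018920) encodes a membrane-bound chemokine that binds CXCR6 and also takes up oxidized lipoprotein, and spans 70453983 to 70459984 of chromosome 11, − strand. It had 192, 124 and 104 CPM in the CTR libraries and 83.6, 60.0, 100 and 119 CPM in VPA replicates 1 to 4. VPA replicates 1, 2 and 3 were under the lowest CTR library and VPA replicate 4 was within the CTR range. The means were 140 ± 46.3 CPM (SD, n = 3) and 90.8 ± 25.2 CPM (SD, n = 4), a difference of −0.63 on the log2 scale with a standard error of 0.295 (edgeR unadjusted p = 0.0673, adjusted p = 0.646). Without CTR replicate 1, the highest library, it was −0.34. The unadjusted p of Cxcl16 fell under 0.05 in 5 alternatives, with limma-voom (0.0419), no filter (0.0215), 10 counts everywhere (0.0392), without CTR replicate 3 (0.0363) and without VPA replicate 4 (0.0370), and its adjusted p stayed at 0.316 or above. Zmynd15 overlaps Cxcl16 on the opposite strand and had 86 counts in all libraries together.

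**Figure D2:**
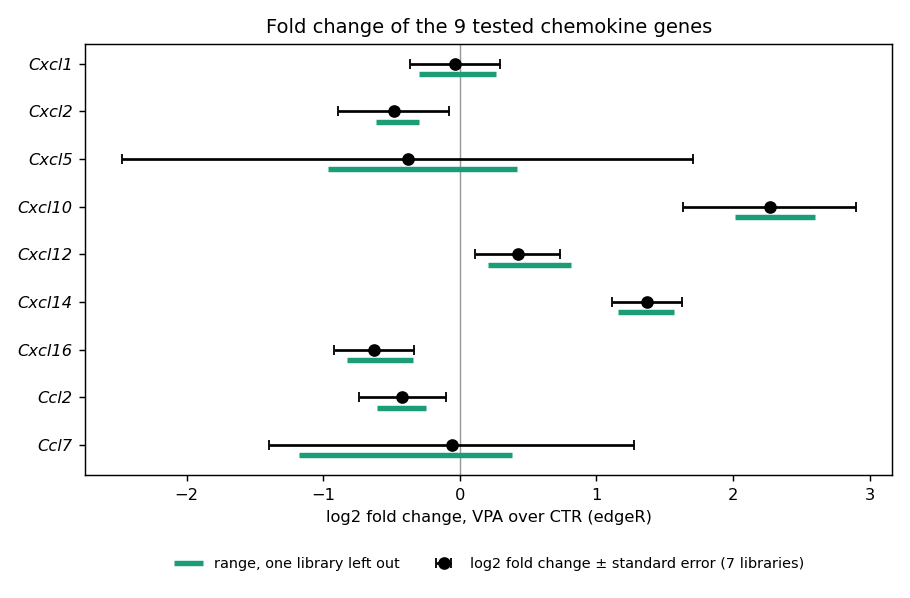
Log2 fold change of VPA over CTR for the 9 tested chemokine genes, with the point and black bar giving the value and its standard error from edgeR over 7 libraries and the green line the range when 1 library is left out in turn. Cxcl10 (2.02 to 2.60) and Cxcl14 (1.16 to 1.57) stay furthest above 0, and the widest bars belong to Cxcl5 and Ccl7.

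In CTR slices the order of mean levels was Cxcl16, Cxcl12, Cxcl1, Ccl2, Cxcl10, Cxcl14 and Cxcl2. The CTR ranges of neighbours in this order overlapped except that every library had more Cxcl16 than the highest had Cxcl12, and more Cxcl14 than the highest had Cxcl2. In VPA slices the order was Cxcl10, Cxcl16, Cxcl14, Cxcl12, Cxcl1, Ccl2 and Cxcl2, where the ranges of neighbours overlapped except those of Ccl2 and Cxcl2. Summed over the 10 genes, the level was 363 to 487 CPM in CTR and 410 to 647 CPM in VPA libraries. Without Cxcl10 the sum was 369 ± 79.7 CPM (SD, n = 3) in CTR and 375 ± 25.0 CPM (SD, n = 4) in VPA libraries.

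The make-up of the chemokine counts was also examined within each library, where normalization has no part. Cxcl16 held 39.4, 34.1 and 28.1% of the members' counts in CTR replicates 1 to 3 and 12.9, 11.4, 24.5 and 18.5% in VPA replicates 1 to 4. Cxcl10 held 5.51, 14.1 and 9.36% in the CTR libraries and 42.0, 34.3, 9.002 and 37.1% in the VPA libraries. VPA replicate 3 thus kept a CTR-like share of Cxcl10, with an exact binomial 95% interval of 6.67 to 11.8%, whereas that of VPA replicate 1 was 38.9 to 45.1%. The Cxcl14 share was 6.69 to 12.05% in CTR and 13.0 to 20.05% in VPA libraries. Shares add up to the whole, so a larger share of Cxcl10 lowers those of the other genes, and the intervals cover counting error only.

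**Figure D3:**
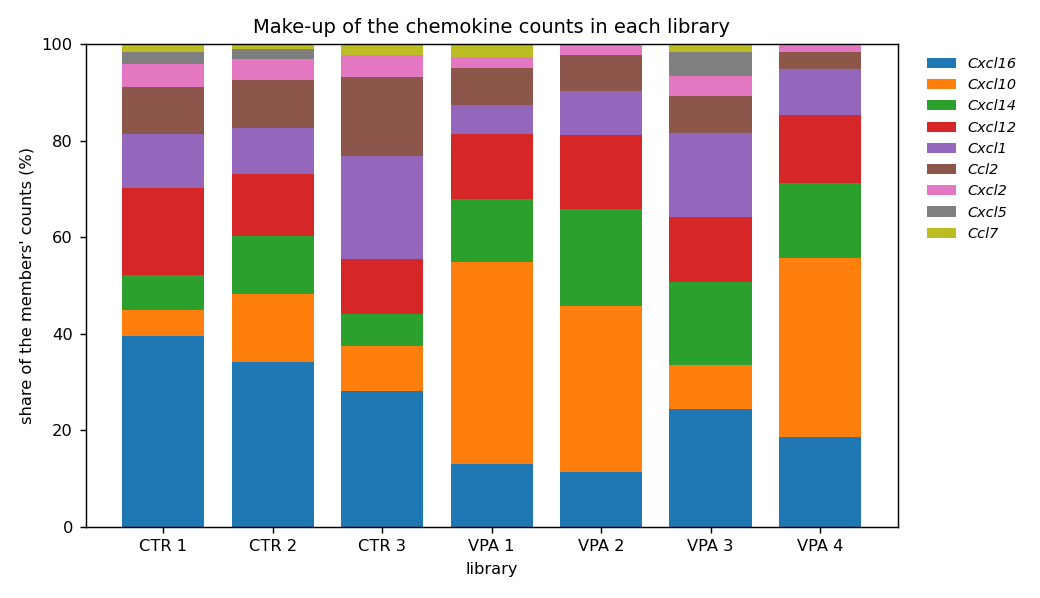
Share of the summed counts of the chemokine genes (%, vertical axis) held by each gene in each of the 7 libraries. Cxcl16 is the largest part in every CTR library and in VPA replicate 3, and Cxcl10 is the largest part in VPA replicates 1, 2 and 4.

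The labels give CTR and VPA libraries of slice cultures 71, 72 and 74, without stating what the number marks. Within these, the CPM ratio of VPA over CTR was 2.86, 2.83 and 2.40 for Cxcl14, the most even of the genes. For Cxcl10 it was 1.07, 8.94 and 3.52, and for Cxcl16 it was 0.969, 0.622 and 0.484. Ccl2 had ratios of 0.519, 0.479 and 1.09, Cxcl12 of 1.33, 1.04 and 1.73, and Cxcl2 of 1.03, 0.383 and 0.742. Cxcl14, Cxcl12 and Cxcl10 had ratios above 1 in all 3 slice cultures, with that of Cxcl10 nearest to 1 in slice culture 71 and that of Cxcl12 in slice culture 72. Cxcl16 had ratios below 1 in all 3, and so had Ccl7 with 0.824, 0.288 and a listed 0.

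**Figure D4:**
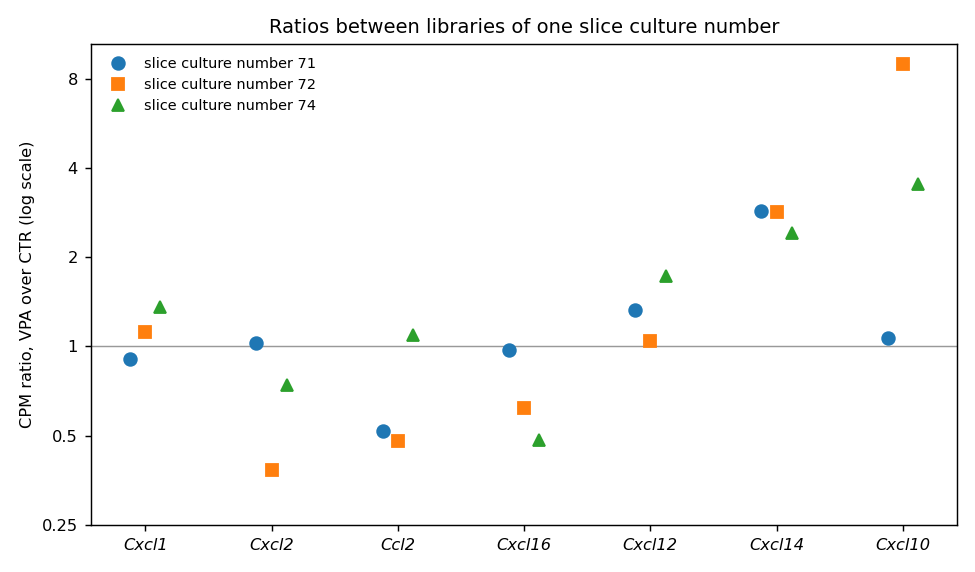
Ratio of CPM in the VPA library over the CTR library (log scale) for slice culture numbers 71, 72 and 74, with 1 point per pair and gene. Cxcl14 lies between 2.40 and 2.86 in all pairs, whereas Cxcl10 runs from 1.07 to 8.94.

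Receptors for these ligands had few or no counts in most libraries. Of 23 chemokine receptor genes, 11 were listed at 0 in all libraries, among them Cxcr1, Cxcr3, Ccr1 and Ccr6, and 2 passed the filter on low counts. Of all 55487 genes, 26086 had a count in any library and 10876 passed that filter. Cxcr2, the receptor of Cxcl1, Cxcl2 and Cxcl5, had 2 counts in all, 1 each in CTR replicates 1 and 3. Ccr2, the receptor of Ccl2 and Ccl7, had 1, 0 and 0 counts in the CTR libraries and 0, 0, 2 and 4 in the VPA libraries. Cxcr6 had 3 counts in CTR replicate 1 and 0 in the other libraries. The Cxcl12 receptors were better covered: Cxcr4 had 10, 66 and 5 counts in the CTR and 0, 34, 0 and 6 in the VPA libraries, and Ackr3 had 17, 74 and 11 against 14, 0, 0 and 9. Among the 2 receptors tested was Cx3cr1, the fractalkine receptor of monocytes and macrophages, which none of the 10 ligands binds. It had 9.85, 8.87 and 14.3 CPM in CTR slices and 4.57, 6.46, 3.21 and 8.31 CPM with VPA, lower without overlap as were 7.41% of all tested genes, and a log2 fold change of −0.95 with a standard error of 0.611 (edgeR adjusted p = 0.790). Ackr3 was the other, with an estimate of −1.21 on the log2 scale and a standard error of 1.47 (edgeR adjusted p = 0.937).

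Of 26 other chemokine genes, 6 were tested, of which 2 were higher and 4 lower with VPA and 0 passed at an adjusted p of 0.05 by edgeR, with 1 lower at an unadjusted p under 0.05. Over all tested genes 45.8% were higher and 54.2% lower, and 4.62% were lower at that p. Ccl6 and Ccl9, CC ligands typical of macrophages and myeloid cells, had the largest differences. Ccl9 had 15.8, 12.2 and 18.6 CPM in the CTR libraries and 2.6, 2.2, 5.6 and 0 CPM in VPA replicates 1 to 4, without overlap (log2 difference −2.57, standard error 0.968, edgeR unadjusted p = 0.0302, adjusted p = 0.553). With slice culture number as a block its unadjusted p from edgeR was 0.0688. Ccl6 had 88.3, 60.5 and 44.4 CPM in CTR libraries and 32.9 CPM in VPA replicate 3, and was listed at 0 in the other 3 VPA libraries (adjusted p = 0.704). With 81 to 307 counts in the CTR libraries and 41 in VPA replicate 3, Ccl6 had no low counts between these and 0, and the cause of its zeros was not tested. Groups without overlap and lower with VPA were found for 2 of these 6 genes, Ccl6 with these zeros among them, and for 7.41% of all tested genes.

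The pathways that commonly drive chemokine genes were set beside them. Of 24 genes of the NF-κB pathway and its targets, 20 were tested, 6 higher and 14 lower, and their log2 fold changes had a median of −0.41, where 45.8% of all tested genes were higher, 54.2% were lower and the median was −0.06. Of these, 0 had an adjusted p under 0.05 from edgeR, and 2 were higher at an unadjusted p under 0.05, the early response gene Ier3 (log2 fold change 0.62) and the costimulatory receptor Cd40 (1.32), where 3.65% of all tested genes were. Next by p was Rela, the p65 subunit of NF-κB (−0.43, edgeR adjusted p = 0.670). The unadjusted p of Cd40 from edgeR was 0.126 with slice culture number as a block. Of 28 interferon-stimulated genes, 18 were tested, 13 higher and 5 lower, with a median of 0.30, 0 with an adjusted p under 0.05 and 1 higher at an unadjusted p under 0.05, against the same shares over all genes. Ifih1, an RNA sensor, had the smallest p of these, with a log2 fold change of 0.72 and a standard error of 0.247 (edgeR adjusted p = 0.514), and was higher in every VPA library than in any CTR library. Rsad2, which encodes the antiviral enzyme viperin, had 71.3, 140 and 117 CPM in the CTR and 407, 275, 38.5 and 484 CPM in the VPA libraries, with VPA replicate 3 below every CTR library (log2 fold change 1.46, adjusted p = 0.670). Irf1, an interferon-induced transcription factor, was lower in every VPA library than in any CTR library (−0.46, edgeR adjusted p = 0.702). Over all tested genes, 4.44% had no overlap with VPA above CTR and 7.41% with VPA below. Of 22 inflammatory cytokines and receptors, 11 were tested, 3 higher and 8 lower, with a median of −0.23 and 0 at an adjusted or unadjusted p under 0.05, where 8.28% of all tested genes had the latter. DESeq2 called 1 gene of these lists, Il18, with 15, 43 and 13 counts in the CTR libraries and listed at 0 in all VPA libraries, where DESeq2 called 0.754% of all genes lower.

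Markers of the cell types that make or follow chemokines were read in the same libraries, and their signs stand against 45.8% of all tested genes higher and 54.2% lower. The markers at 0 stand against 26086 of all 55487 genes with a count in any library. Of 10 neutrophil markers, 7 were at 0 in all libraries, among them S100a8, S100a9, Ly6g and Csf3r, and their summed level was 1.58 to 3.55 CPM in CTR and 0 to 7.23 CPM in VPA libraries. Of 8 T and NK cell markers, 6 were at 0 throughout, with sums of 0 to 1.64 CPM in CTR and 0 to 6.53 CPM in VPA. The 6 B cell markers summed to 1.64 to 11.2 CPM in CTR libraries and were all at 0 in VPA libraries. Of 12 Kupffer cell and macrophage markers, 8 were tested, 5 higher and 3 lower with VPA, with sums of 334 to 477 CPM in CTR and 346 to 614 CPM in VPA, although Adgre1 and Marco were at 0 throughout. The 12 HSC markers were all tested, 8 lower and 4 higher, with sums of 1875 to 4177 CPM in CTR and 1419 to 3030 CPM in VPA. The smallest p was that of Col1a1, a fibrillar collagen gene (log2 fold change −1.66, edgeR adjusted p = 0.112), and DESeq2 called 2 of the 12 lower, Col1a1 and Col1a2, against 0.754% of all genes. Of 10 sinusoidal endothelium markers, 9 were tested, 7 lower and 2 higher, with sums of 311 to 417 CPM in CTR and 151 to 356 CPM in VPA. The 12 hepatocyte markers, which mark the main cell type of the tissue, summed to 6849 to 19735 CPM in CTR and 5325 to 17259 CPM in VPA, with 8 higher and 3 lower of the 11 tested. Of 7 cholangiocyte markers, 4 were tested, 2 in each direction, with sums of 268 to 616 CPM in CTR and 258 to 742 CPM in VPA, and the 6 mesothelium markers summed to 1.64 to 21.9 CPM in CTR and 1.61 to 21.5 CPM in VPA. In edgeR's test over the 10876 genes 0 markers had an adjusted p under 0.05. Over the 6652 genes with 10 counts everywhere Col1a1 (0.00745) and Col1a2 (0.0228) passed, where 0.541% of the genes did, and without a filter on low counts Col1a1 passed (0.0229), where 0.0383% did. The part of these cell types in the levels of Cxcl14, Cxcl10 and Cxcl16 was not tested.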

How the data were processed

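PCLS RNA was made into 3′ end libraries (QuantSeq FWD). After quality control and trimming, the authors used STAR with GRCm38.p6 for mapping and StringTie for genes and transcripts. Per the submitters' processing notes the build is mm10. They deposited raw counts per Ensembl gene without normalization. The counting program, its use of strand and its treatment of multi-mapped reads are not given in the sources used here.

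From the counts, edgeR 4.0.16 in R 4.3.3 (filterByExpr, TMM, robust quasi-likelihood test, condition only) was run over all genes, with p-values adjusted by Benjamini-Hochberg and called under 0.05. The standard error is the log2 fold change divided by the square root of the F statistic. CPM used TMM library sizes, and log2 CPM a prior count of 2. Symbols came from GENCODE (55227 of 55487 genes), promoter windows from RefSeq. Alternatives were DESeq2 1.42.0, limma-voom (limma 3.58.1), other normalizations and filters, no robust dispersion, 2 replicate blocks and each library left out. The code was tested on simulated data.

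The 10 genes, the lists (written from general knowledge) and the tests were chosen with earlier results of these data known. Named are the 10 genes, 9 receptors, up to 3 genes of smallest p in each other list and 5 genes most like the member with the highest mean CPM. Polr2e, Il18, Cxcl3, Cx3cr1, the markers at 0 and the overlapping genes were named after their values were seen. The libraries of each group differed by more than counting noise (chi-square per degree of freedom 14.7 to 27.3). Per the study's methods a biological repeat is a separate liver. Whether the slice culture number in the labels marks the liver, so that CTR and VPA libraries share livers, is not given in the sources used here.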

Additional observations from a re-analysis of the deposited data

Results flagged for a closer look

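In the VPA group, 3 of 28 measures had a library set apart from the other 3 by more than Dixon's test allows. Chance alone sets apart a library in about 1 of 20 groups of this size. VPA replicate 2 had 3102450 counts on genes against 1400887 to 1515954 in the others. Cxcl5 was at 20.1 CPM in VPA replicate 3 and listed at 0 in the other VPA libraries. With the other 3 at 0, any level would be set apart, so the chance rate does not apply to this measure. The summed level of the Kupffer cell and macrophage markers was 614 CPM in VPA replicate 4 against 346 to 377 CPM in the others. The Cxcl10 level of VPA replicate 3 did not pass this test.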

How the results depend on the processing

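The count of chemokine genes past the threshold was 0 in edgeR's test and in 15 of 18 alternatives. It was 2 with DESeq2 (Cxcl10 and Cxcl14), 1 over genes with at least 10 counts in every library (Cxcl14) and 2 at an unadjusted p under 0.05. Over all genes, edgeR called 1 gene, and DESeq2 called 154, no filter 10, and at least 10 counts in every library 36, where 6652 genes were tested. Leaving out a library gave 0 to 2 genes (2 without VPA replicate 2 or 4, 0 without CTR replicate 1 or 2 or VPA replicate 1 or 3) and 0 chemokine genes each time. DESeq2 called 1 inflammatory gene, Il18. With the replicate block by slice culture number or by replicate number, 0 genes passed in all. The deviations of same-numbered libraries had correlations of 0.107 (slice culture 71), 0.0256 (72) and 0.0546 (74), and by replicate number of −0.0539 (1), 0.0546 (2) and 0.107 (3). Correlations over so few libraries cannot decide whether the libraries are paired. No block was used in the main test because the labels do not state what the slice culture number marks, and whether it marks a liver is not stated. For Cxcl10 the unadjusted p was 0.0543 and 0.0587 under these blocks, and for Cxcl14 it was 0.000764 and 0.00155. The log2 fold change of Cxcl1 turned to 0.066 with limma-voom and 0.15 with the slice culture block, and ran from −0.30 to 0.26 with a library left out. The median of the 9 genes moved to −0.58 with the slice culture block, where that of all tested genes was −0.086. With limma-voom these medians were −0.32 and −0.14. For Cxcl5 the log2 fold change was −0.38 in edgeR's test, −2.67 with limma-voom, −3.24 with the slice culture block, −3.57 with the replicate number block and −0.97 to 0.42 with a library left out. For Ccl7 it was −0.06, −1.98, −2.02 and −0.87 in the same order and −1.18 to 0.38 with a library left out. The other 6 tested chemokine genes kept their direction in every alternative. The cause of these shifts was not tested. Few counts or zeros leave Cxcl5, Ccl7, Ccl6 and the 2 tested receptors without a firm estimate, and the other receptors did not pass the filter. Cxcl5 and Ccl7 were both listed at 0 in VPA replicate 2, the deepest VPA library. Whether depth or failed counts set the zeros was not tested.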
